A study of Mus musculus with 3 samples.

Results

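Small ribosomal subunit assembly factors are the proteins that fold, cut and modify the precursor of 18S ribosomal RNA and turn it into the 40S subunit. The 44 genes described here were chosen by name from what their products do, and each symbol was looked up in the deposited expression table. All 44 were found among 16977 genes, and 0 were absent. The choice of names used no measured value, but it was made with earlier results of these data known.

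Ribosome assembly starts in the nucleolus, where RNA polymerase I transcribes a long precursor that carries 18S, 5.8S and 28S ribosomal RNA. The small subunit (SSU) processome gathers on the leading part of this precursor, with the U3 small nucleolar RNA as a guide, and helps it to fold and to be cut. Later factors travel with the pre-40S particle to the cytoplasm, where the last cut makes mature 18S ribosomal RNA. Dividing neural progenitors need many new ribosomes, and loss of single assembly factors is known to stabilise p53.

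The RNA came from neural stem cells of C57BL/6J E12.5 mouse embryos, cultured with EGF and FGF and infected with a lentivirus carrying a short hairpin RNA. The control hairpin (shControl) was sequenced in 1 library, and the hairpin against PHF2 (shPHF2) in 2 libraries that the series describes as biological replicates. Both groups thus share culture, infection and strain, and the labels do not tell how many hairpin sequences against PHF2 were used. PHF2 belongs to the histone demethylases, and its known substrate is lysine 9 of histone H3 in methylated form. Values are normalised reads, that is, reads over a gene's exons divided by the library's size factor, and log2 fold changes are the shPHF2 mean minus shControl of log2(value + 1). Paired shPHF2 values are given in the order replicate 1, replicate 2.

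Reads in genes numbered 26302177 to 37171026 per library. Phf2 itself had 2593 normalised reads in shControl and 985 and 714 in shPHF2 (log2 fold change -1.63, SE 0.24; limma, adjusted p = 0.0085). Of 10 neural stem cell markers only Sox2 passed the test, and it rose (limma, adjusted p = 0.048). The authors' deposited table, made with DESeq2, called Sox2 higher (adjusted p = 0.024) and also Vim and Prom1 (adjusted p = 0.015 and 0.032). The 10 were split: 4 lay below the control in both shPHF2 libraries, 4 above it in both and 2 on either side. The median log2 fold change of these markers was -0.07. Their summed level was 331508 in shControl and 345110 and 388761 in shPHF2. A few abundant genes that moved in different directions make up most of this sum. Vim had 77235 normalised reads in shControl and 116785 and 132042 in shPHF2, and Nes had 118161, 101381 and 98053. Fabp7 had 56224, 41963 and 66987, and the less abundant Pax6 had 1392, 1046 and 691. Genes of S phase moved with the group: 19 of 20 fell (limma), and their summed level was 44.4% of the control in replicate 1 and 40.8% in replicate 2. Neuron markers summed to 66.4% and 65.2% of the control in the same order, nearly all of it Map2, with 60020 normalised reads in shControl and 37935 and 38518 in shPHF2 (limma, adjusted p = 0.12). Map2 was called lower in the authors' table (DESeq2, adjusted p = 0.020). Tubb3, another neuron marker, had 104, 198 and 346 (limma, adjusted p = 0.070). Summed astrocyte markers were higher, at 1222 normalised reads in shControl and 2708 and 2802 in shPHF2 (5 of the 6 listed genes were tested, of which 1, S100b, rose; limma), with Gfap at 1.99, 10.8 and 20.5 and Aqp4 at 0, 6.67 and 37.4 in the same order. The similar astrocyte sums of the shPHF2 libraries had different makeups: Aldh1l1 had 146, 152 and 1009 normalised reads, and Slc1a2 had 744, 1445 and 885. Of 7 microglial markers 4 were in the table, and they summed to 111, 238 and 228 normalised reads, most of it P2ry12 (99.7, 204 and 213). Csf1r had 11.0, 27.5 and 10.9, and Aif1 and Tmem119 were at 0 in shControl and between 1.21 and 4.17 in shPHF2. Sums in the same order were 69620, 64834 and 84165 for the oligodendrocyte lineage and 290, 334 and 176 for endothelium, and fibroblast markers summed to at most 16.9 in any library. Most of the oligodendrocyte sum was Olig1 (37506, 38217 and 52987) and Olig2 (29320, 24241 and 29091). Of the 6 genes of that list that were tested, 5 lay below the control in both shPHF2 libraries and 1 above it. Pdgfra had 539, 303 and 159 normalised reads, and 0 of the 6 passed (limma). The part of these genes in the results below was not tested.

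The assembly factors were lower in shPHF2 as a group, and Pno1 fell far more than any other. Of the 44, 22 fell and 0 rose (limma, adjusted p under 0.05 by the Benjamini-Hochberg method over 14148 genes; 32 were lower and 0 higher at an unadjusted p under 0.05, and edgeR and DESeq2 also called 0 higher). Over all genes tested, 7.11% were called lower and 7.22% higher. Every one of these factors has a mean of at least 500 normalised reads, and among the 8849 genes at that level, a minimum chosen after seeing the data, 10.5% were called lower. The median log2 fold change of the 44 was -0.70, beside -0.01 over all genes tested. With no filter on low values, with quantile normalization or without the mean-variance trend, limma called 0 genes of any kind, and 31, 28 and 23 of the factors were lower at an unadjusted p under 0.05. Other tests called 21 to 23 of the factors lower: 23 by edgeR (8.06% of all genes), 21 by DESeq2 (7.65%), 23 with TMM scaling (8.1%), 22 with a pseudocount of 5 (7.03%) and 22 with a minimum mean of 50 (8.83%). In bulk RNA, fewer cells of a type and less RNA per cell cannot be told apart, and the control is a single library.

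All 44 fold changes were below 0. Both shPHF2 libraries lay below the control for 42 factors, which holds for 41.8% of all genes tested and 46.3% of those with a mean of at least 500. The exceptions were Noc4l and Ddx47, where replicate 2 was slightly above the control. Summed over the 44 genes, the normalised reads were 61.2% of the control in replicate 1 and 61.5% in replicate 2. The shPHF2 libraries lay close to each other: the median absolute difference between them was 0.10 on the log2 scale for these factors, 0.16 for genes with a mean of at least 500 and 0.21 for all genes tested. Rrp9 differed most between them, by 0.48. The authors' deposited table, made with DESeq2, called the same 22 factors lower and 0 higher, against 7.96% lower among the 12697 genes with an adjusted p there.

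**Figure D1:**
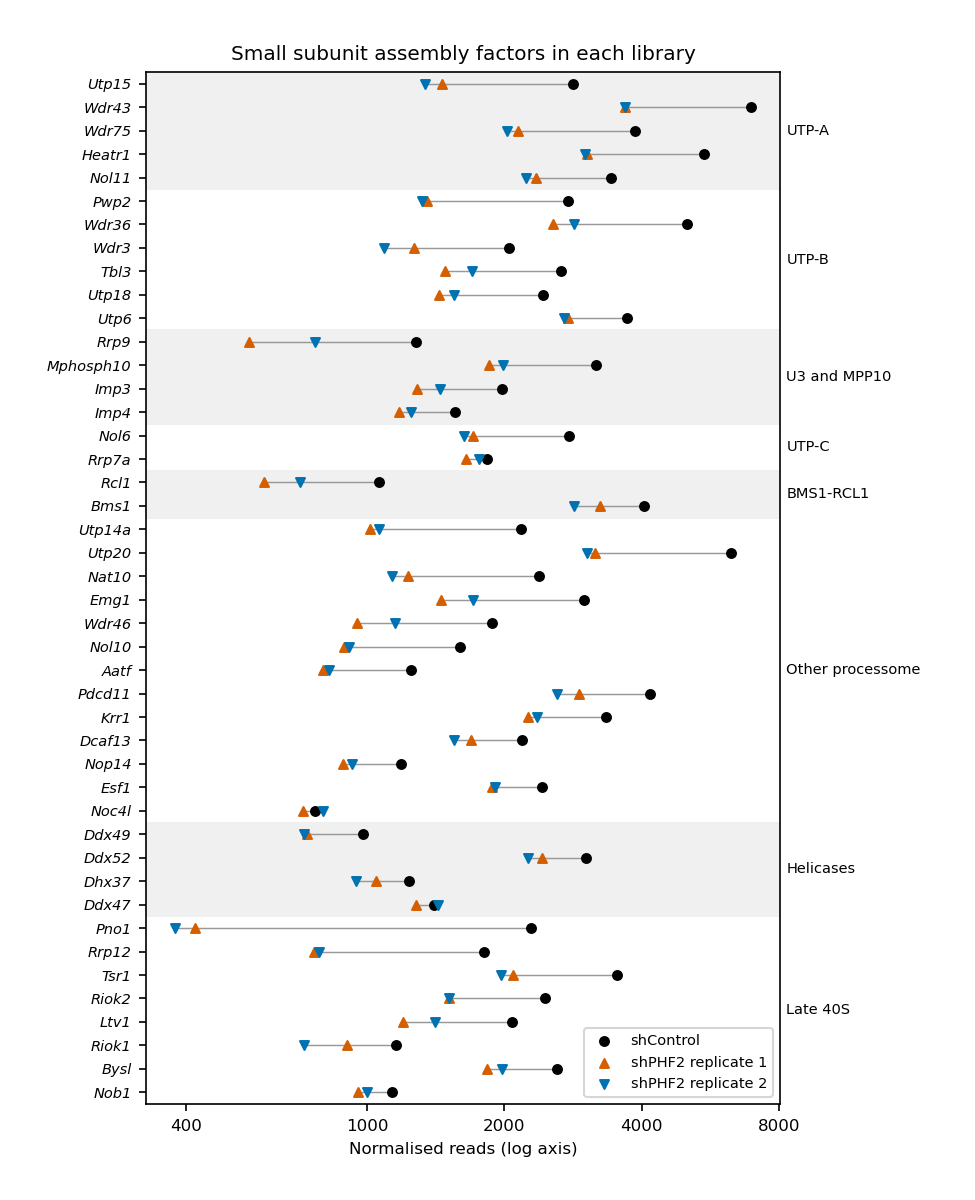
Normalised reads (log axis) of the 44 assembly factors in the shControl library (circle) and in shPHF2 replicates 1 and 2 (triangles), grouped by role and ordered by fold change within a role; grey lines join the lowest and highest library. The shPHF2 symbols lie left of the control for 42 factors, and Pno1 shows the widest gap, from 2294 to 419 and 379.

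Pno1 encodes a KH-domain RNA-binding protein that sits on the pre-40S particle next to the end of 18S ribosomal RNA and works with the endonuclease NOB1. The gene (ENSMUSG00000020116) lies on the minus strand of chromosome 11, from 17203198 to 17211568 (GENCODE M21, GRCm38). It had 2294 normalised reads in shControl and 419 and 379 in shPHF2. Both shPHF2 libraries stood at about the same low level, and their mean of 399 ± 28.2 (SD, n = 2) was 17.4% of the control. In the limma fit its change was -2.52 on the log2 scale with an SE of 0.22 (adjusted p = 0.0036), and the authors' deposited table gives -2.52 as well. Among the 6670 genes tested with a mean at least as high as that of Pno1, only Zcchc12 had a lower log2 fold change, -3.41. Over all 14148 genes tested, at any mean, the log2 fold change of Pno1 ranked 23 from the lowest. The next lowest factor, Rrp12, stood at -1.22. Leaving out Pno1 put the median of the other 43 at -0.70, with 21 that fell.

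A further 3 late factors fell with Pno1. Rrp12, a HEAT-repeat protein needed for export and maturation of pre-40S particles, had 1807 normalised reads in shControl and 765 and 782 in shPHF2. Its shPHF2 mean of 773 ± 12.7 (SD, n = 2) was 42.8% of the control (log2 fold change -1.22, SE 0.20; limma, adjusted p = 0.011). Rrp12 lies on chromosome 19 from 41862851 to 41896173 (GRCm38). Tsr1, a GTPase-like protein that holds the place of a translation factor on the pre-40S particle, had 3534 in shControl and 2093 and 1966 in shPHF2 (log2 fold change -0.80, SE 0.18; limma, adjusted p = 0.025). The atypical kinase gene Riok2 had 2462 in shControl and 1515 and 1513 in shPHF2, the closest pair of shPHF2 values among the late factors (log2 fold change -0.70, SE 0.18; limma, adjusted p = 0.039). Both shPHF2 values lay below the single control value for each of these genes, as for 41.8% of all genes tested. Since the genes were picked by their calls, this is no separate support.

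The remaining 4 late factors did not pass the test. Ltv1, which is released from the particle during its last steps, had 2078 normalised reads in shControl and 1199 and 1408 in shPHF2 (limma, adjusted p = 0.059); it passed with TMM scaling (adjusted p = 0.047) and in edgeR (adjusted p = 0.044). Riok1, a kinase of the last maturation step, had 1158 in shControl and 903 and 728 in shPHF2 (limma, adjusted p = 0.17). Bysl, the processome and pre-40S protein bystin, had 2605, 1832 and 1972 in the same order (limma, adjusted p = 0.13). Nob1, the endonuclease that makes the final cut of 18S ribosomal RNA beside PNO1, had 1131 in shControl and 955 and 999 in shPHF2 (log2 fold change -0.21, SE 0.20; limma, adjusted p = 0.52). The transcripts of these 2 partners thus differed in their change, at 17.4% of the control for Pno1 and 86.4% for Nob1, a difference that was not tested in itself.

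The UTP-A complex binds the leading end of the precursor first and links it to transcription by RNA polymerase I. Of the 5 genes listed for it here, 4 were lower. Utp15 had 2828 normalised reads in shControl and 1456 and 1336 in shPHF2 (log2 fold change -1.02, SE 0.18; limma, adjusted p = 0.014). Wdr43 was the most abundant of the 44 by normalised reads, with 6964 in shControl and 3683 and 3675 in shPHF2 (log2 fold change -0.92, SE 0.17; limma, adjusted p = 0.016). Both shPHF2 values of Wdr43 were nearly identical and 52.8% of the control on average. Wdr75 had 3863 in shControl and 2140 and 2029 in shPHF2 (limma, adjusted p = 0.018). Heatr1, the large HEAT-repeat scaffold of the complex on chromosome 13 from 12395027 to 12440289 (GRCm38), had 5491 in shControl and 3034 and 3012 in shPHF2 (log2 fold change -0.86; limma, adjusted p = 0.018). Nol11, the fifth listed gene, had 3424, 2351 and 2227 and did not pass (limma, adjusted p = 0.064). The median log2 fold change of these 5 listed genes was -0.89. Cirh1a, which encodes the UTP-A protein UTP4, was listed with the further small subunit factors below. It had 2064 in shControl and 1398 and 1376 in shPHF2 and did not pass (log2 fold change -0.57; limma, adjusted p = 0.075).

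UTP-B is a complex of WD-repeat proteins and the HAT-repeat protein UTP6 that joins next and contacts the U3 RNA, and 5 of its 6 genes fell. Pwp2 had 2762 normalised reads in shControl and 1351 and 1317 in shPHF2 (log2 fold change -1.05, SE 0.18; limma, adjusted p = 0.013). Wdr36 had 5041 in shControl and 2554 and 2844 in shPHF2 (log2 fold change -0.90; limma, adjusted p = 0.018). Wdr3 had 2042 in shControl and 1266 and 1087 in shPHF2 (limma, adjusted p = 0.036). All of these genes encode WD-repeat propeller proteins, as do the next pair. Tbl3 had 2666 in shControl and 1481 and 1695 in shPHF2 (limma, adjusted p = 0.037). Utp18 had 2427, 1434 and 1554 (log2 fold change -0.70; limma, adjusted p = 0.042), a call that DESeq2 on the recovered reads did not make (adjusted p = 0.051). Utp6 was the exception, with 3724 in shControl and 2761 and 2698 in shPHF2, 73.3% of the control (limma, adjusted p = 0.12).

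Of the 4 genes listed here for proteins that bind U3 or the MPP10 complex, 2 fell. Rrp9, the WD-repeat protein specific to the U3 particle, had 1281 normalised reads in shControl and 550 and 768 in shPHF2. Its shPHF2 mean was 659 ± 154 (SD, n = 2), 51.5% of the control (log2 fold change -0.98, SE 0.26; limma, adjusted p = 0.043), and replicate 1 was the lower. Mphosph10, the scaffold of the MPP10 complex, had 3186 in shControl and 1853 and 1986 in shPHF2 (log2 fold change -0.73; limma, adjusted p = 0.034). Its partners Imp3 and Imp4, which help U3 to pair with the precursor, did not pass (limma, adjusted p = 0.099 and 0.24). Imp3 had 1979 normalised reads in shControl and 1286 and 1443 in shPHF2, and Imp4 had 1559, 1171 and 1247.

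UTP-C joins the forming particle as well, and 1 of the 2 genes listed for it here fell. Nol6 had 2768 normalised reads in shControl and 1710 and 1630 in shPHF2 (log2 fold change -0.73; limma, adjusted p = 0.035). Rrp7a had 1831 in shControl and 1649 and 1757 in shPHF2 (log2 fold change -0.11, SE 0.18; limma, adjusted p = 0.74). Rrp36, also a UTP-C gene but listed with the further small subunit factors below, had 1019, 920 and 1144 in the same order (log2 fold change 0.01; limma, adjusted p = 0.98). Neither the GTPase gene Bms1 nor that of its partner RCL1 passed: Bms1 stood at 75.3% and Rcl1 at 61.5% of the control (limma, adjusted p = 0.16 and 0.079).

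Of the 13 other processome factors, 6 fell. Utp14a, an X-linked gene whose product activates the processome helicase DHX37, had 2171 normalised reads in shControl and 1015 and 1060 in shPHF2 (log2 fold change -1.06, SE 0.19; limma, adjusted p = 0.014). Utp20, a very large HEAT-repeat protein gene on chromosome 10 from 88746607 to 88826804 (GRCm38), had 6286 in shControl and 3162 and 3033 in shPHF2 (log2 fold change -1.02, SE 0.17; limma, adjusted p = 0.012). Nat10, which encodes the acetyltransferase that makes N4-acetylcytidine in 18S ribosomal RNA, had 2387 in shControl and 1229 and 1135 in shPHF2 (log2 fold change -1.02; limma, adjusted p = 0.016). These 3 genes were close to each other in relative level, at 47.8%, 49.3% and 49.5% of the control. Emg1, the methyltransferase that acts on a pseudouridine of 18S ribosomal RNA, had 2991 in shControl and 1453 and 1710 in shPHF2 (limma, adjusted p = 0.021). Wdr46 had 1876 in shControl and 949 and 1150 in shPHF2 (limma, adjusted p = 0.036). Nol10, a nucleolar WD-repeat protein gene, had 1595 in shControl and 888 and 910 in shPHF2 (limma, adjusted p = 0.032).

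The other 7 of this group did not pass. Aatf, Pdcd11 and Krr1 came nearest, at log2 fold changes of -0.62, -0.60 and -0.53 (limma, adjusted p = 0.081, 0.063 and 0.080). Dcaf13, Nop14 and Esf1 lay between -0.43 and -0.35. Noc4l, a partner of NOP14, was nearest to 0 of all 44 factors: it had 767 normalised reads in shControl and 721 and 798 in shPHF2 (log2 fold change -0.01, SE 0.22; limma, adjusted p = 0.97). Its shPHF2 values lay on either side of the control.

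None of the 4 RNA helicase genes passed (limma; 0 lower at an unadjusted p under 0.05, and 0 by edgeR or DESeq2). Ddx49 had 977 normalised reads in shControl and 736 and 726 in shPHF2, Ddx52 had 3019, 2417 and 2251, and Dhx37 had 1236, 1043 and 945 in the same order. Ddx47 had 1403 in shControl and 1276 and 1429 in shPHF2, so that its shPHF2 libraries also lay on either side of the control. The median log2 fold change of the 4 helicase genes was -0.34. A p above the threshold does not show that they did not change, and whether roles differ from each other was not tested.

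**Figure D2:**
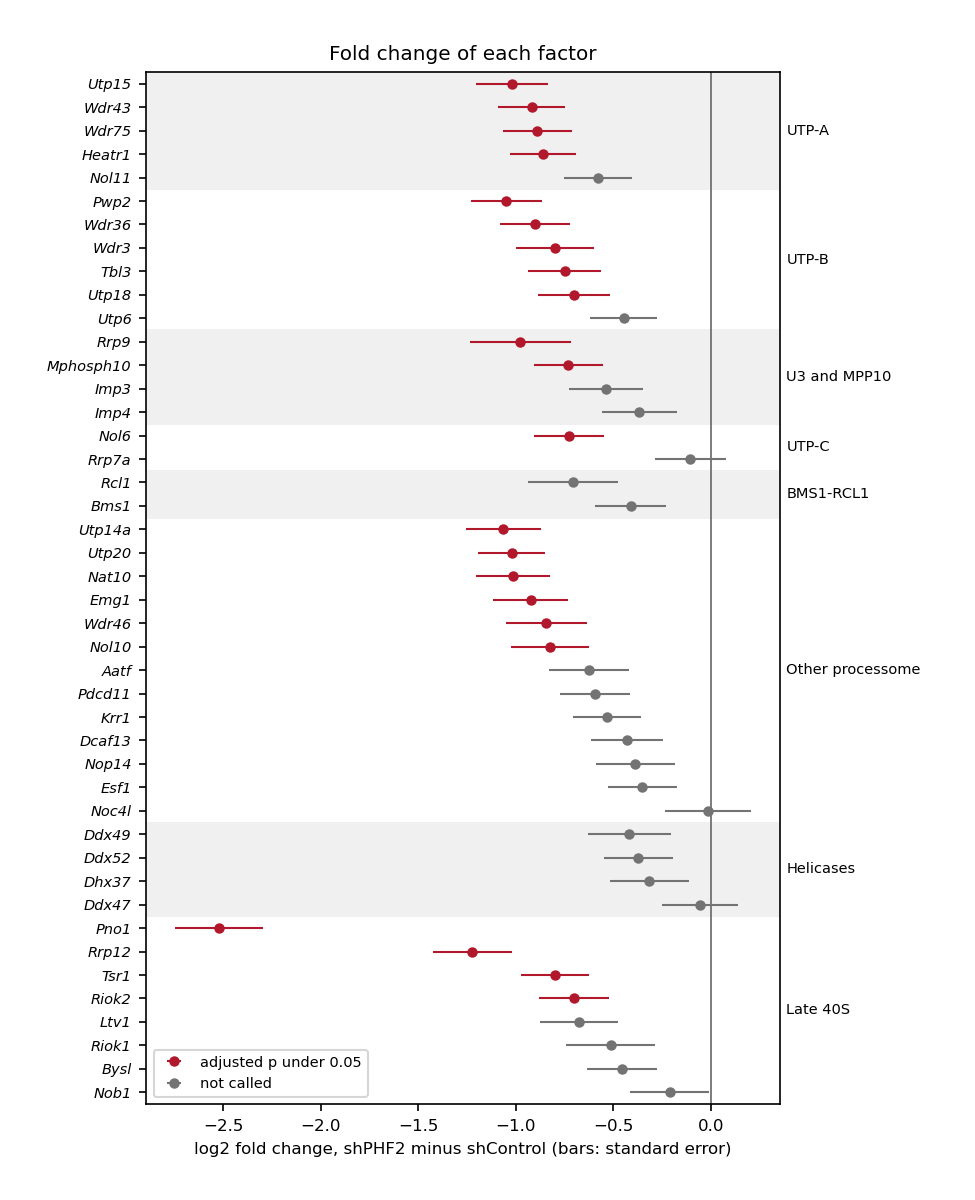
Log2 fold change of each of the 44 factors (shPHF2 minus shControl, limma) with its standard error, by role; red points passed an adjusted p under 0.05 and grey points did not. All points lie below 0, and Pno1 at -2.52 stands apart from the other 43, which lie between -1.22 and -0.01.

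Levels can be compared between genes only per length, here as normalised reads per kb of the longest protein-coding transcript in GENCODE M21. On that scale the factors spanned 260 to 2893 in shControl. Emg1 was highest, at 2893 per kb in shControl and 1405 and 1653 per kb in shPHF2, followed by Imp3 and Wdr43. These 3 also led in the shPHF2 mean, in the same order. Pno1 ranked 4 of the 44 in shControl, at 1485 per kb, and 41 in shPHF2, at 271 and 245 per kb. Dhx37 and Imp4 were lowest in shControl, at 260 and 267 per kb, while Rrp12 was lowest in shPHF2, at 176 and 180 per kb. The length of the transcript the cells use was not measured, so these ranks are approximate. For Emg1 the length used was 1034 bases, while all its annotated exons together cover 4632. Its top rank thus depends on the choice of length. For Dcaf13 the same lengths were 1551 and 10825 bases.

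**Figure D3:**
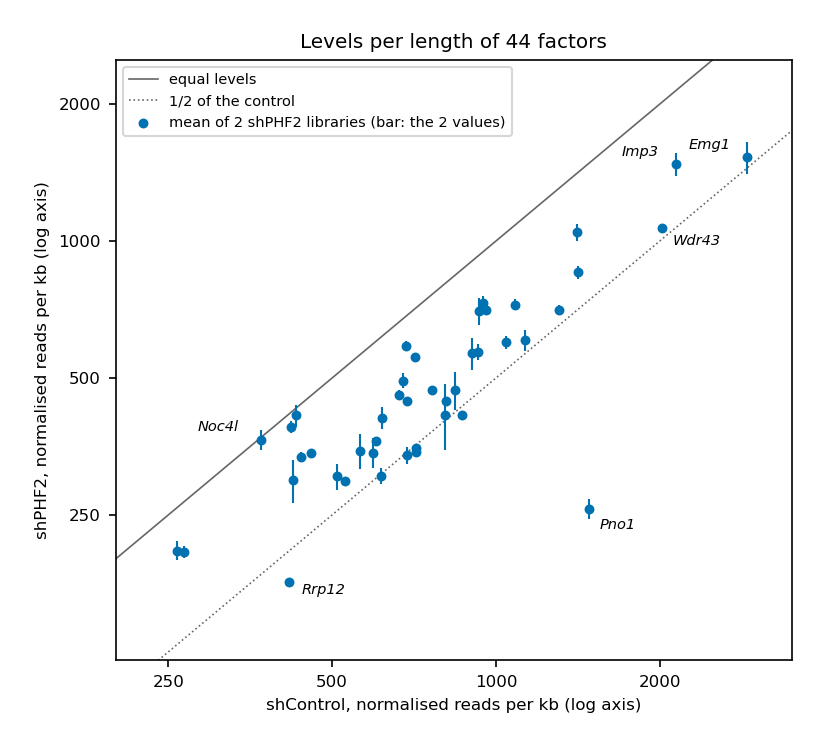
Normalised reads per kb of transcript of the 44 factors in shControl (x) and shPHF2 (y, mean of 2 libraries with a bar joining their values), both on log axes, with a solid line at equal levels and a dotted line at 1/2 of the control. Most factors lie between the lines, Noc4l lies at the solid line, and Pno1 lies far below the dotted one.

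Promoter windows from RefSeq (GRCm38.p6, 250 bases before to 50 after the gene start) were matched for 38 of the 44 factors. They were searched for CACGTG, the core word bound by MYC and related factors, which reads the same on both strands. The word stood in the windows of 11 of the 38 genes (28.9%). The share was 11.6% of the 10299 genes tested that have a window, and 12.4% of those with a mean of at least 500. Of all 27025 genes with a window, tested or not, 8.09% had the word. It was found in 6 of 18 factors that fell and in 5 of 20 that did not pass. The stretches around it in the 6 that fell are printed 5′ to 3′ on the gene's strand, so that the flanks can be compared. Capitals mark CACGTG, and the flanks are 12 bases where the window allows.

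Pno1: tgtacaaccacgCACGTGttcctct
Utp20: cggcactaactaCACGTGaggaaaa
Tsr1: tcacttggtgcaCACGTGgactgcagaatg
Wdr43: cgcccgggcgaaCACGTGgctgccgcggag
Wdr46: aagggagtttcgCACGTGgatcgttgttcg
Utp18: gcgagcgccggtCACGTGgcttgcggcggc

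In Pno1 and in Utp20 the word began at position 38 of the transcribed part (chr11:17211540-17211564 and chr10:88826765-88826789, both minus strand). It began at position 25 in Tsr1 (chr11:74898092-74898121, plus strand) and at position 18 in Wdr43 (chr17:71616220-71616249, plus strand). In Wdr46 and Utp18 it lay just before the RefSeq start, at positions -12 (chr17:33940699-33940728, plus strand) and -20 (chr11:93885769-93885798, minus strand). All positions count from the RefSeq start of the window, which can differ from the start in GENCODE M21. There Wdr46 starts at 33940660 and Wdr43 at 71615895, so both stretches lie inside the GENCODE genes. Large subunit factors had the word in 9 of 33 genes (27.3%), and small subunit factors outside the 44 had it in 3 of 16 (18.8%). The E2F words TTTCCCGC, TTTGGCGC and TTTCGCGC, searched on both strands, were in 0 of the 38 genes and in 3.94% of the genes tested. The windows of the factors had a median of 57.3% G and C, beside 52.7% over all windows, and the part of this difference was not tested. A match describes letters and shows no binding.

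Exons of 20 factors overlap those of a gene on the other strand in GENCODE M21, with use of the strand in counting not given in the sources used here. Of the 22 that fell, 11 have no such overlap. In 5 of the other 11 it covers over 10% of the exonic length, most for Tbl3, where Noxo1 covers 37.3%, and Tsr1, where Srr covers 32.3%. Noxo1 had 165 normalised reads in shControl and 189 and 163 in shPHF2, and Srr had 699, 684 and 986. Pno1 shares 33 bases, 1.92% of its exonic length, with Wdr92, which had 825 in shControl and 770 and 792 in shPHF2. Of 16 overlapping genes with values, 7 were higher than the control in both shPHF2 libraries, 4 of them beside factors that fell. The same held for 5855 of the 14148 genes tested, a similar share. Parp3, beside Rrp9, had 176 normalised reads in shControl and 830 and 1001 in shPHF2, and Lgals8, beside Heatr1, had 617, 1371 and 1198. Gdap2, beside Wdr3, had 771, 1028 and 1244, and Lpcat3, beside Emg1, had 1410, 1759 and 1930. The other 3 were Serhl, Calhm2 and Homer3, beside Rrp7a, Pdcd11 and Ddx49. The part of these genes in the values of the factors was not tested.

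Other genes of the pathway were listed by function. Of 22 further small subunit factors, 3 fell (limma; 7 were lower at an unadjusted p under 0.05), with a median log2 fold change of -0.35. These calls make up 13.6% of the list, beside 7.11% over all genes tested and 10.5% among those averaging 500 normalised reads or more. The count is thus not far above the latter share, and the difference was not tested. Tsr2, the chaperone that delivers a ribosomal protein to the pre-40S particle, had 2674 normalised reads in shControl and 1258 and 1317 in shPHF2 (log2 fold change -1.05; limma, adjusted p = 0.013). Rbm19 had 1894 in shControl and 1019 and 1112 in shPHF2 (limma, adjusted p = 0.030), and Nop9 had 2103, 1186 and 1284 (limma, adjusted p = 0.035). Both encode nucleolar RNA-binding proteins of the processome. The late kinase genes Riok3, Csnk1d and Csnk1e lay between -0.01 and 0.05.

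Factors that build the large subunit were close to the small subunit factors: 19 of 40 fell (limma; 29 were lower at an unadjusted p under 0.05), with a median log2 fold change of -0.64. Of 34 genes for proteins of the small subunit itself, 2 fell, Rps4x and Rps12, and 1 rose, Rps16 (limma), with a median of -0.35. The share called lower was 5.88%, beside 7.11% of all genes tested, of which 7.22% were called higher. Genes for ribosomal proteins have many processed copies, so single values are uncertain. The lists were not tested against each other.

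**Figure D4:**
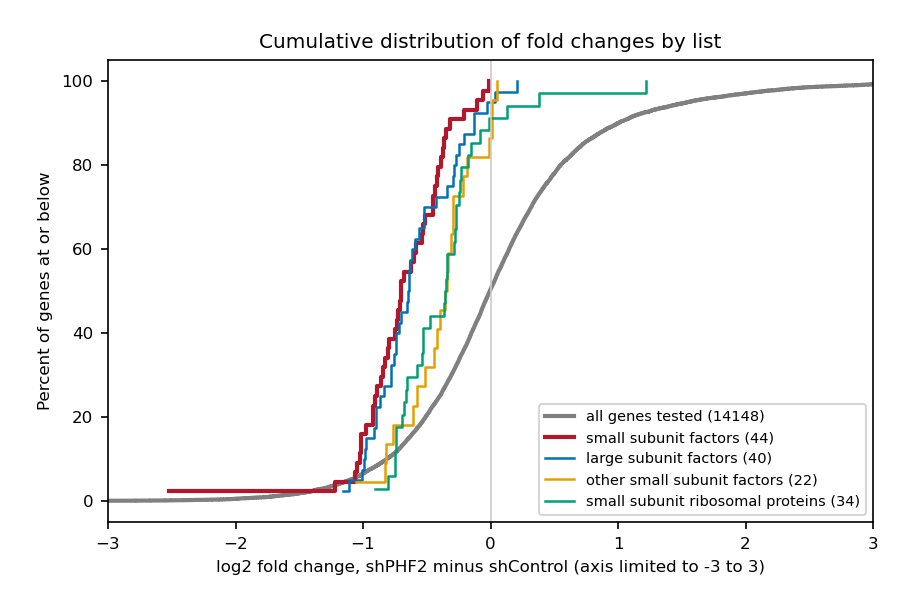
Cumulative percent of genes (y) at or below a log2 fold change (x, shPHF2 minus shControl, limited to -3 to 3) for all genes tested, the 44 small subunit factors, 40 large subunit factors, 22 other small subunit factors and 34 small subunit ribosomal proteins. The curves of the small and large subunit factors lie close together, with medians of -0.70 and -0.64, left of the curve for all genes, whose median is -0.01.

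Small nucleolar RNA genes lie within the gene bodies of Wdr43 and Tsr1, on the same strand. Snord53, in Wdr43, had 92.7 normalised reads in shControl and 32.5 and 27.7 in shPHF2, a log2 fold change of -1.59 that did not pass (limma, adjusted p = 0.10). Snord92, also in Wdr43, had 6.98, 2.50 and 8.44 normalised reads and was under the minimum mean for the test. Snord91a, in Tsr1, had 34.9, 34.2 and 22.9 (log2 fold change -0.31; limma, adjusted p = 0.80). Library preparation for longer RNA captures such short RNAs poorly, so these values are given with their hosts only as a description.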

How the data were processed

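The 3 libraries were made from total RNA after ribosomal RNA removal with a stranded kit, per the labels' protocols. Per the submitters' processing notes the authors used HISAT2, HTSeq, DESeq2 and build mm10, with versions, annotation and strand setting not given in the sources used here. The deposited table gives a signal per gene, read counts divided by a DESeq2 size factor (1.00, 1.20 and 0.829 for shControl, shPHF2 replicate 1 and replicate 2), per the file headers and the values. All values (100%) were whole multiples of 1 read within 0.001, so reads were recovered for count tests as alternatives. For shControl, whose step is close to 1, this rests on the unrounded values. The authors' log2 fold change, Wald score, p-value and adjusted p-value come from DESeq2, per the file headers. Genes held 38.5% to 38.6% of the reads in the table; the 4 entries that name no gene held the rest and were left out, and 0 library columns were unused.

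The 14148 genes whose mean reached 10 entered a limma fit of log2(value + 1), with limma 3.58.1 (mean-variance trend) in R 4.3.3, two-sided, Benjamini-Hochberg adjusted p under 0.05. The 1 residual degree of freedom comes from the shPHF2 libraries, with 6.94 prior degrees of freedom, so the single control is taken to vary as they do. The shPHF2 libraries are described as biological replicates, though not as separate cultures, so p-values measure the spread between these samples. On simulated data the share of false calls was above the 5% that the threshold names, for limma and edgeR alike, and many 2-fold changes were missed, so an adjusted p near 0.05 is weaker evidence than its value says. The members and lists were chosen with earlier results of these data known. Named genes are Phf2, the members and other small subunit factors that pass, and the members with the highest, lowest and smallest change; the remaining members and the marker genes were named after their values were seen. Alternatives were pseudocount 5, no filter, a minimum mean of 50, quantile normalization, TMM scaling, no trend, edgeR 4.0.16, DESeq2 1.42.0 and leaving out each shPHF2 library.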

Additional observations from a re-analysis of the deposited data

How the results depend on the processing

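The count of 22 factors lower held within 21 to 23 with pseudocount 5, a minimum mean of 50, TMM scaling, edgeR and DESeq2, where 22, 22, 22, 22 and 21 of the same genes were called. It was 0 with no filter on low values, with quantile normalization and without the mean-variance trend, as was the count of 3 other small subunit factors; limma then called 0 of all genes, while 3893, 3700 and 3300 genes had an unadjusted p under 0.05, and the cause was not tested. All 44 fold changes stayed below 0 under each of these settings. The median of the factors was -0.62 with quantile normalization (the cause was not tested) and ranged from -0.70 to -0.66 when 1 shPHF2 library was left out, which leaves 1 library against 1 and no test. Without replicate 1, 42 of the 44 were below 0. The log2 fold change of Pno1 ranged from -2.60 to -2.45 in those comparisons. No paired analysis was possible because shControl has 1 library. The single control library has no error of its own, and 1 residual degree of freedom limits what small changes can show. No factor nearer to 0 than -0.70 passed in the reported limma test, while Ltv1 passed at -0.68 with TMM scaling and in edgeR.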
